A study of Canis lupus familiaris with 23 samples.

Results

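The genes described here are 9 components of the Wnt and R-spondin pathway, followed through dog skin and the epidermal organoids grown from it. They were chosen by name, from rows of the count tables that carry the symbols LEF1, TCF7, TCF7L2, APCDD1, AXIN2, KREMEN1, LGR4, RNF43 and ZNRF3. The tables of the whole series list 21416 entries. All 9 are listed in each of the 23 libraries, hold only whole counts, and passed the filter on low counts, which left 9888 genes.

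Wnt proteins bind Frizzled receptors together with LRP co-receptors, which stops the breakdown of beta-catenin. Beta-catenin then joins DNA-binding factors of the TCF and LEF family and switches on target genes, several of which feed back to damp the signal. R-spondins act one step earlier: bound to LGR receptors, they hold back the membrane ubiquitin ligases RNF43 and ZNRF3, which otherwise clear Frizzled from the cell surface. In skin the pathway is known for starting hair follicles, for renewing them in each hair cycle and for building the hair shaft. R-spondin is also a common ingredient of organoid media.

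RNA was counted by CEL-seq2, which tags and counts the 3′ ends of transcripts, here in bulk samples of 12 groups. The 6 tissue libraries were 2 of whole skin, 2 of hair follicles in a mixture of the anagen (growing) and telogen (resting) phases, and 2 of interfollicular epidermis, the surface epidermis between follicles. The 17 organoid libraries were all taken 7 days after culture. In expansion medium, follicle organoids without a Tgf-beta inhibitor gave 2 libraries at passages 0 to 1, called early here, and 2 at passages 3 to 6, called later. Follicle organoids with the inhibitor gave 3 early and 2 later libraries, and interfollicular organoids with the inhibitor gave 1 library at each stage. A further 6 libraries came from later follicle organoids in differentiation medium: 2 in the complete medium, 2 from which R-Spondin-1 and Noggin were left out, and 2 that lacked Forskolin as well. Noggin blocks BMP signals and Forskolin raises cyclic AMP. R-Spondin-1 was left out only together with Noggin, so the effects of these agents cannot be told apart. The labels do not say whether replicates came from separate dogs, so p-values measure the spread between these libraries, which may be technical.

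Total counts ran from 86301 to 4822410 per library, and levels are given as CPM (counts per 1000000) after normalization by the trimmed mean of M values. A count of 0 allows up to 0.684 CPM in the deepest library and up to 23.1 CPM in the shallowest, the second one of interfollicular epidermis. These limits, and the count intervals given below, cover counting error only. Most marker lists separated follicles from interfollicular epidermis. The summed fibroblast and dermal papilla markers were higher in follicles (4481 to 7445 against 1257 to 3654 CPM). So were, among others, melanocyte markers (577 to 1009 against 0 to 96.5 CPM), while immune markers were lower (95.3 to 211 against 555 to 601 CPM). The summed level of 7 suprabasal keratinocyte markers was 13107 to 17243 CPM in interfollicular epidermis and 1525 to 1959 CPM in follicles. The sum of 10 hair matrix and shaft markers was 10172 to 11749 CPM in follicles and 100.2 to 1137 CPM in interfollicular epidermis. The sums of 6 follicle stem and germ cell markers (1460 to 2776 CPM in follicles and 1093 to 2144 CPM in interfollicular epidermis, with SOX9 at 0 in both) and of the basal keratinocyte markers (9008 to 9051 and 7084 to 16541 CPM) overlapped. Markers of fibroblasts and dermal papilla cells, the mesenchyme inside and around follicles, were present in all 6 tissue libraries, with a sum over 10 genes of 1257 to 7445 CPM. In the 11 expansion libraries that sum was 50.8 to 752 CPM, and in the 6 differentiation libraries, where 8 of the genes are listed, 3.43 to 42.8 CPM. In such bulk samples, fewer cells of a type and less RNA per cell cannot be told apart.

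**Figure D1:**
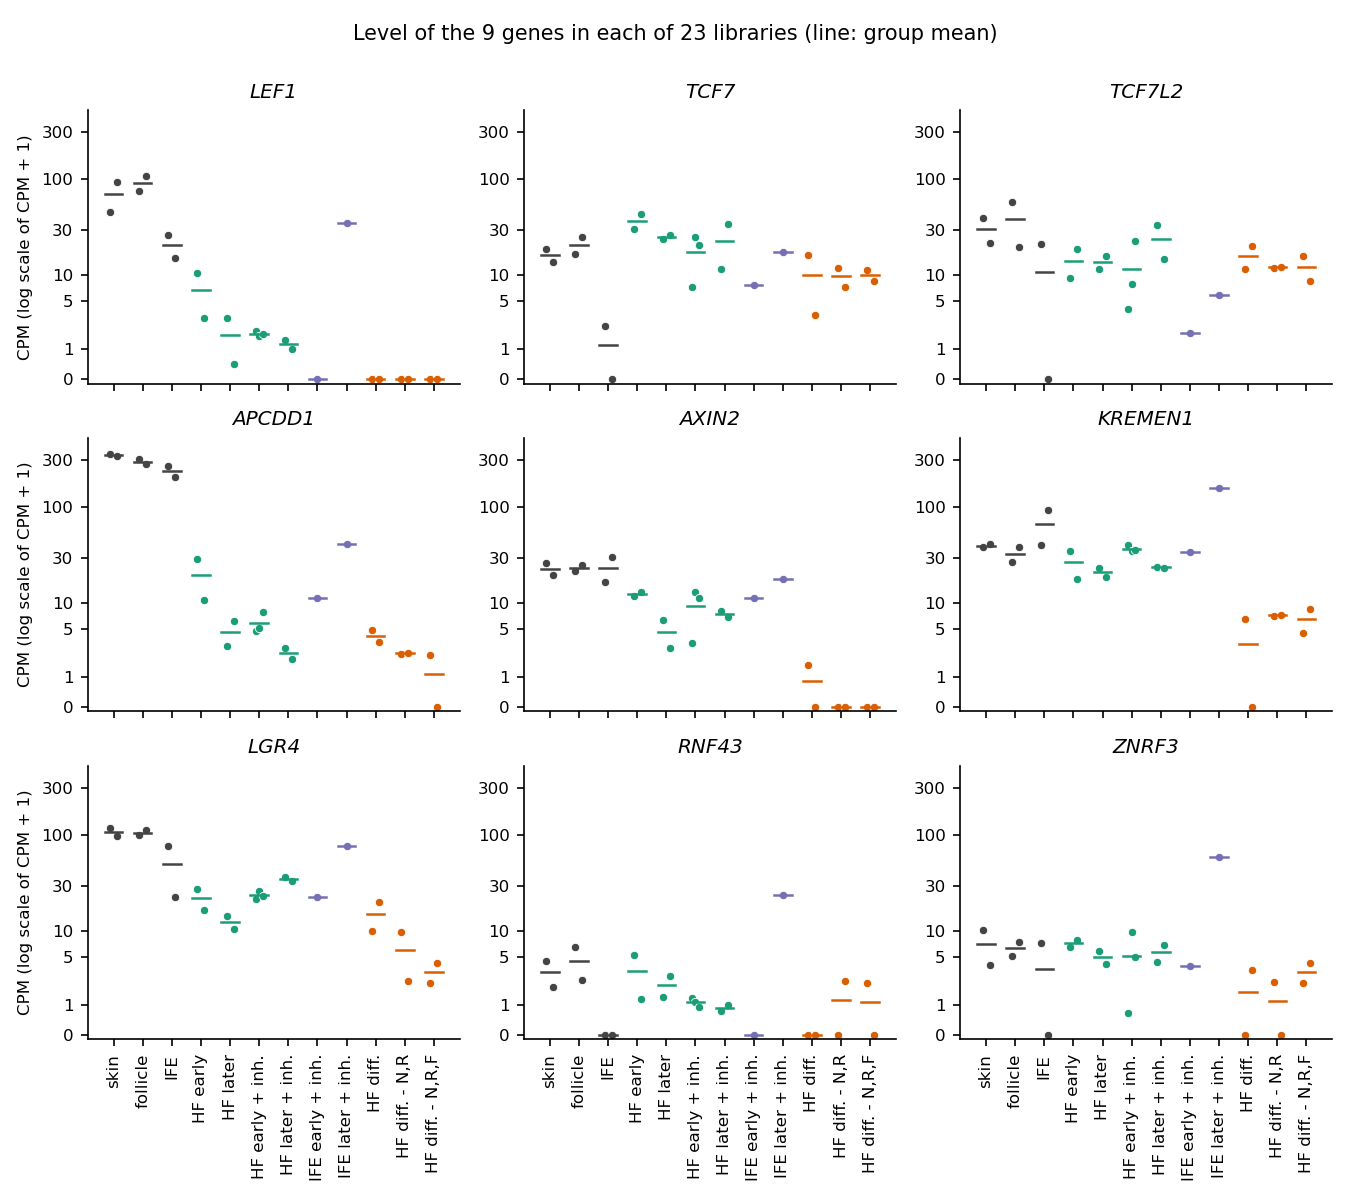
CPM of the 9 genes in each of the 23 libraries, on a log scale of CPM + 1, by group (IFE, interfollicular epidermis or organoids from it; HF, follicle organoids; inh., Tgf-beta inhibitor; diff., differentiation medium; N, Noggin; R, R-Spondin-1; F, Forskolin). Points are libraries and short lines group means; LEF1 and APCDD1 stand lower in all follicle organoid libraries than in tissue, and KREMEN1, RNF43 and ZNRF3 reach their highest value in the 1 later interfollicular organoid library.

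In the source tissues, the nuclear factors LEF1 and TCF7 stood higher in follicles than in interfollicular epidermis, although neither difference passed the test over all genes. LEF1, the partner of beta-catenin that marks hair matrix and dermal papilla, was at 75.9 and 109 CPM in follicles, at 46.6 and 93.5 CPM in whole skin and at 26.6 and 15.4 CPM in interfollicular epidermis. Both follicle libraries lay above both epidermal ones. The log2 difference was 2.00 ± 0.63 (SE, 2 libraries against 2), with an adjusted p of 0.107 by edgeR's quasi-likelihood test with Benjamini-Hochberg adjustment. In counts, 231 against 13, the follicle level was 4.10 times the epidermal one, with a counting interval of 2.35 to 7.82.

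TCF7, a related factor of the same family, was at 17.0 and 25.7 CPM in follicles and at 2.41 and 0 CPM in interfollicular epidermis. These epidermal values rest on 1 count in all. The ratio of follicle to epidermis was 12.5 with a counting interval of 2.14 to 501, and the adjusted p was 0.127. TCF7L2, the third factor, was at 58.9 and 20.1 CPM in follicles and at 21.7 and 0 CPM in interfollicular epidermis, so its groups overlapped.

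The feedback inhibitors had smaller fitted differences between these tissues, from -0.83 to 0.30 on the log2 scale. APCDD1, a membrane protein that inhibits Wnt signalling and is mutated in a hereditary form of hair loss, was at 304 and 269.7 CPM in follicles, 342 and 330.2 CPM in whole skin, and 258 and 200.5 CPM in interfollicular epidermis. AXIN2, a scaffold of the complex that breaks down beta-catenin and a widely used target of the pathway, was at 22.3 and 25.7 CPM in follicles and at 16.9 and 30.8 CPM in interfollicular epidermis, where its groups overlapped. KREMEN1, a receptor that helps Dickkopf inhibitors remove LRP6 from the membrane, was at 27.5 and 38.9 CPM in follicles and at 41.0 and 92.5 CPM in interfollicular epidermis. KREMEN1 was the 1 gene of the 9 with a fitted difference below 0.

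Of the R-spondin arm, the receptor LGR4 was at 99.5 and 112 CPM in follicles and at 77.2 and 23.1 CPM in interfollicular epidermis. RNF43 had 9 counts in follicles and 0 in interfollicular epidermis, and ZNRF3 had 16 and 3. RNF43 at its follicle level was below what 3 counts amount to in the pooled epidermal libraries, 5.51 CPM, so a difference was not detectable at this depth.

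None of the 9 genes was called different between follicles and interfollicular epidermis at an adjusted p under 0.05, where 2.79% of the 9888 genes were. DESeq2 and limma voom called none of the 9 either. LEF1 and TCF7 were the 2 with an unadjusted p under 0.05, beside 1592 of the 9888 genes. Without a filter on low counts both were called, and with only the 4 libraries of the comparison in the fit LEF1 was. Against whole skin, none of the 9 was called in follicles (0% of all genes were) or in interfollicular epidermis (1.56% of all genes were) by edgeR, DESeq2 or limma voom. The counts at an unadjusted p under 0.05 were 0 and 2 of the 9, the latter LEF1 and TCF7, beside 144 and 1301 of all genes.

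Of 89 other listed genes of the pathway, which were sorted by role into 6 lists, 49 were tested and 4 differed between follicles and interfollicular epidermis, all higher in follicles. ROR2, a receptor for non-canonical Wnt signals, had 53 counts in follicles and 0 in interfollicular epidermis. Its follicle level was 4.08 times that of 3 counts over the epidermal group, and the lower counting limit of the ratio was 3.20. SFRP1, a secreted protein that binds Wnt ligands, was at 424 to 465 CPM in follicles and 92.5 to 157 CPM in interfollicular epidermis (log2 difference 1.78 ± 0.45, adjusted p = 0.0301). That call was lost when any 1 of the 4 libraries was left out, with adjusted p-values up to 0.184. The target genes HOXC13, a regulator of hair keratins, and BAMBI, a decoy receptor for TGF-beta family signals, differed by 3.75 ± 0.60 (adjusted p = 7.99e-04) and 3.16 ± 0.60 (adjusted p = 0.00598), and kept their calls whichever library was left out. All 5 epidermal counts of BAMBI came from the first library of interfollicular epidermis, and without it the fitted difference of 9.59, against a library at 0, is no bound. HOXC13 is also on the list of hair matrix markers, of which 9 were tested and all 9 were higher in follicles, as were 3 of 8 fibroblast and dermal papilla markers. The part of these markers in the pathway differences between the tissues was not tested. Against whole skin, HOXC13 and BAMBI were the 2 pathway genes called in interfollicular epidermis, lower by log2 differences of -3.44 ± 0.60 and -2.94 ± 0.61. Both of those calls were lost without some 1 library.

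In culture, 4 of the 9 genes fell in follicle organoids in expansion medium relative to follicle tissue, and none rose. They were LEF1, APCDD1, AXIN2 and LGR4. Over all genes tested, 28.0% were called in this comparison and 19.0% were called lower. The fitted change was below 0 for 8 of the 9, with a median of -1.38 on the log2 scale against 0.00 for all genes.

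LEF1 was at 0.418 to 10.7 CPM in the 9 follicle organoid libraries, with a median of 1.82 CPM, against 75.9 and 109 CPM in the tissue. Even the highest organoid library, the first early one without inhibitor, was below both follicle libraries. The log2 change was -5.30 ± 0.39 (adjusted p = 3.81e-09). In pooled counts the tissue level was 42.2 times that of the organoids, with a counting interval of 30.5 to 59.7.

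APCDD1 was at 1.99 to 29.3 CPM in the organoids, with a median of 5.18 CPM, against 269.7 and 304 CPM in the tissue. Its log2 change was -5.54 ± 0.28 (adjusted p = 9.09e-12), and the highest organoid value again belonged to the first early library without inhibitor. This library also had the highest sum of fibroblast and dermal papilla markers among the 9, 507 CPM against 50.8 to 242 CPM in the other 8.

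AXIN2 was at 2.92 to 13.2 CPM in the organoids, with a median of 8.09 CPM, against 22.3 and 25.7 CPM in the tissue. The log2 change was -1.55 ± 0.40 (adjusted p = 0.00590). The groups did not overlap, but without the second follicle library the change was -1.44 with an adjusted p of 0.136. In pooled counts the tissue level was 2.83 times that of the organoids (2.06 to 3.83).

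LGR4, the R-spondin receptor, was at 10.4 to 37.5 CPM in the organoids, with a median of 23.9 CPM, against 99.5 and 112 CPM in the tissue. The log2 change was -2.25 ± 0.28 (adjusted p = 2.03e-06), and all 9 organoid libraries lay below both tissue libraries. The ubiquitin ligases it controls did not pass the test: RNF43 was at 0.736 to 5.33 CPM in organoids and 2.51 to 6.55 CPM in follicles, and ZNRF3 at 0.673 to 9.78 and 5.24 to 7.53 CPM.

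The other 2 factors of the family, TCF7 and TCF7L2, were not called. TCF7 was at 7.40 to 44.5 CPM in the organoids, with a median of 25.3 CPM, and at 17.0 and 25.7 CPM in the tissue. TCF7L2 was at 4.04 to 33.9 CPM in the organoids, against 20.1 and 58.9 CPM, with a log2 change of -1.23 ± 0.49 and an adjusted p of 0.0660. It was on the called side of the threshold under 7 of the alternatives tried, among them scaling by DESeq2 size factors (-1.41, adjusted p = 0.0338), whereas without the first follicle library the change was -0.30 (adjusted p = 0.812). KREMEN1 was at 18.3 to 41.0 CPM in the organoids and at 27.5 and 38.9 CPM in the tissue, with overlapping groups.

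Marker genes of other cell types moved with these falls. All 8 fibroblast and dermal papilla markers tested fell, and the summed level of the 10 listed went from 4481 to 7445 CPM in follicle tissue to 50.8 to 507 CPM in the organoids; COL6A2, the 1 listed marker at 0 in the organoids, was at 0 in follicle tissue too. All 9 hair matrix and shaft markers tested fell as well, with a sum over 10 genes of 90.9 to 135 CPM in the organoids against 10172 to 11749 CPM. Basal keratinocyte markers rose, 5 of 6, with a sum of 44700 to 73771 CPM against 9008 to 9051 CPM. The part of these shifts in cell markers in the fall of LEF1, APCDD1, AXIN2 and LGR4 was not tested.

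**Figure D2:**
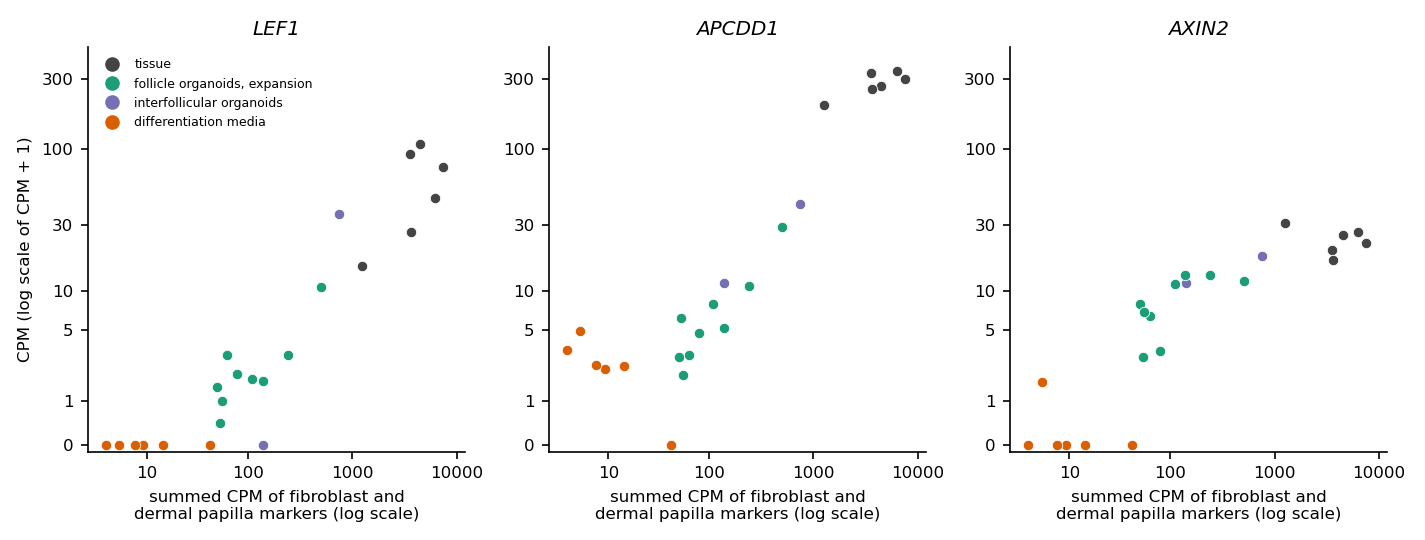
CPM of LEF1, APCDD1 and AXIN2 (log scale of CPM + 1) against the summed CPM of fibroblast and dermal papilla markers (log scale) in each of the 23 libraries, coloured by kind of sample. The 6 tissue libraries have sums of 1257 to 7445 CPM and the highest APCDD1 levels, 200.5 to 342 CPM, while the later interfollicular organoid library, at 752 CPM of markers, has 42.1 CPM of APCDD1.

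Among the other pathway genes, 20 of 49 fell and 3 rose in follicle organoids, and 9 of these 23 calls held whichever of the 11 libraries was left out. Receptors were the list with the most falls, 6 of the 8 tested. Of these, only FZD1, FZD7 and ROR2 kept their calls whichever library was left out. LRP6 changed by -1.51, and by -1.04 without the second follicle library. FZD1, a Frizzled receptor, went from 27.0 to 40.6 CPM in follicles to 0 to 1.60 CPM in the organoids (log2 change -6.05 ± 0.49), FZD7 changed by -2.63 ± 0.42 and ROR2 by -3.36 ± 0.49. LGR5, the R-spondin receptor known from follicle stem cells, had 19 counts in follicles and 3 in all 9 organoid libraries, a ratio of 50.9 with a counting interval of 15 to 269. The receptor RYK was the 1 receptor that rose, by 1.25 ± 0.34, from 26.2 to 29.5 CPM to 39.0 to 92.7 CPM. Its adjusted p reached 0.0900 when a follicle library was left out.

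Ligands moved in both directions. WNT10A rose from 10.7 to 14.4 CPM to 9.33 to 44.9 CPM (1.23 ± 0.38), and WNT9B fell, from 11 counts in follicles to 6 in all organoids (ratio 14.7, counting interval 5.0 to 48.5). The call of WNT10A was lost without either follicle library (adjusted p up to 0.276) or the second early library that lacked the inhibitor (0.0532), and that of WNT9B without the first follicle library (-3.90 against -4.93 as reported, adjusted p = 0.0531). The R-spondin genes gave few counts: RSPO1, RSPO2 and RSPO3 had 0, 3 and 2 counts in follicles and 2, 4 and 0 in the 9 organoid libraries.

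Of the inhibitors outside the cell, DKK3, a divergent member of the Dickkopf family, rose by 2.14 ± 0.35, from 68.1 to 102 CPM to 165 to 591 CPM. SOSTDC1, which binds LRP co-receptors, and FRZB, a secreted Frizzled-related protein, fell by log2 values of -1.95 ± 0.47 and -1.87 ± 0.58 with overlapping groups, and both calls were lost without the first follicle library (adjusted p = 0.0729 for each), that of FRZB also without the second (0.191). Without the second early library that lacked the inhibitor, FRZB changed by -3.23. The FRZB change also averages unlike organoids: those with the Tgf-beta inhibitor were higher by 3.48 on the log2 scale, as described below. It does not describe organoids with and without the inhibitor alike. Inside the cell, NKD1, a feedback inhibitor that binds Dishevelled, changed by -4.44 ± 0.59 (-3.76 without the second follicle library) and the tankyrase TNKS, which marks Axin for breakdown, by -1.24 ± 0.30. CSNK1E, a kinase of Dishevelled, changed by -1.50 ± 0.32 and CTNNB1, the gene of beta-catenin, by -1.20 ± 0.29. The calls of CSNK1E and CTNNB1 were each lost without 1 follicle library, with adjusted p-values of 0.0865 and 0.101. The co-repressors TLE1 and TLE3 changed by -1.88 ± 0.41 and -0.99 ± 0.34, and neither kept its call without the first follicle library (adjusted p = 0.0608 and 0.134); TLE3 lost it without any of 5 other libraries as well. Of 10 common target genes tested 5 fell, among them BAMBI by -5.07 ± 0.32, HOXC13 by -4.22 ± 0.29 and GATA3 by -1.74 ± 0.36, all of which kept their calls. TNFRSF19 changed by -1.72 ± 0.49, and by -1.06 (adjusted p = 0.441) without the second follicle library.

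**Figure D3:**
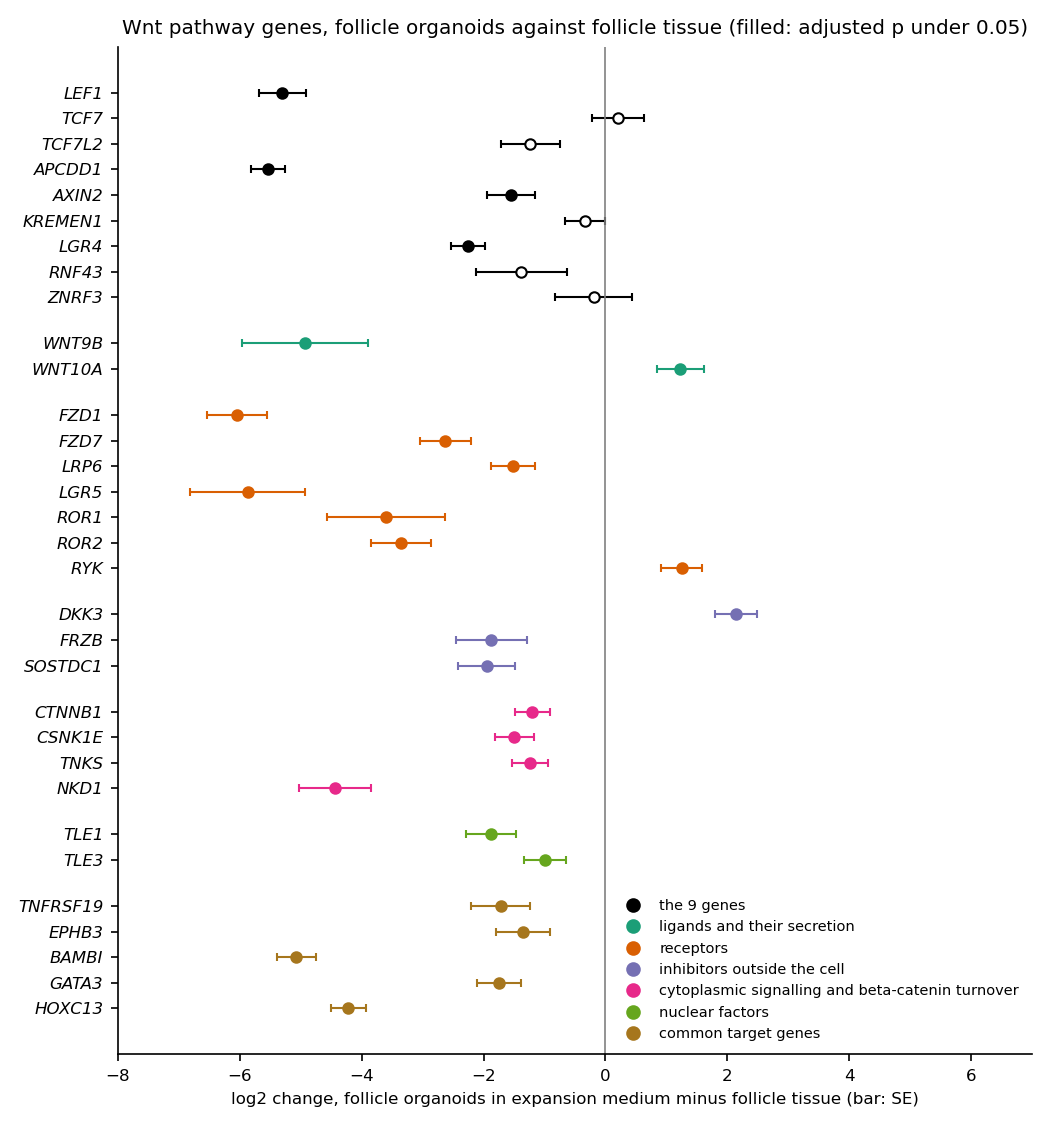
log2 change from follicle tissue (2 libraries) to follicle organoids in expansion medium (9 libraries) for the 9 genes and for the 23 other pathway genes called, grouped by role; bars are standard errors and filled points passed an adjusted p under 0.05. APCDD1 and LEF1, at -5.54 and -5.30, lie near the target genes BAMBI and HOXC13 and the receptor FZD1, while TCF7, KREMEN1 and ZNRF3 lie near 0.

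In interfollicular organoids, APCDD1 was the 1 gene of the 9 that fell relative to interfollicular epidermis. It was at 11.5 CPM in the early library and 42.1 CPM in the later one, against 258 and 200.5 CPM in the tissue. The log2 change was -3.39 ± 0.51 (adjusted p = 1.79e-04), in a comparison in which 11.2% of all genes were called and 4.50% were called lower. It was -2.43 without the early library and -4.32 without the later one, and called in both cases. LEF1 was at 0 CPM in the early library, which allows up to 5.77 CPM, and at 36.1 CPM in the later one, above both tissue libraries. Its fitted change of -3.56 ± 1.57 was not called (adjusted p = 0.152). Without the later library the fitted change was -7.83, and without the early library its sign turned to 0.67. The early library at 0 enters both -3.56 and -7.83, so neither fitted value is a bound. In pooled counts, 13 against 6, the tissue level was 2.73 times that of the organoids, with a counting interval of 0.969 to 8.77.

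The fall of fibroblast markers was seen here too, for 3 of 8, with sums of 140.4 and 752 CPM in the organoids, and 5 of 7 suprabasal keratinocyte markers fell, with sums of 429 and 1617 CPM against 13107 to 17243 CPM. The part of these shifts in the fall of APCDD1 was not tested. Among other pathway genes, 4 of 49 rose and 2 fell. GATA3 fell by -3.22 ± 0.59 on the log2 scale, from 579 to 709 CPM to 65.4 to 72.2 CPM, and was the 1 gene of these 6 that stayed called whichever library was left out. TNKS fell, from 33 counts to 7 (ratio 5.95, counting interval 2.59 to 15.9), with a log2 change of -5.66 that was -2.16 (adjusted p = 0.0527) without the later organoid library and -9.18 without the early one, where the remaining organoid library is at 0 and the fitted value is no bound. SFRP1 rose by 1.55 ± 0.45 and DKK3 by 1.48 ± 0.43, and neither was called with scaling by library totals (0.99 and 0.88). CSNK1A1, a kinase that primes beta-catenin for breakdown, rose by 1.61 ± 0.38 and CTNNB1 by 1.57 ± 0.44. Without the later organoid library these 2 changes were 0.57 and 0.41, with adjusted p-values of 0.445 and 0.659.

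Some genes of this pathway were high in the later interfollicular organoid library, which is a single library. It was shallow, with 222051 counts, and all 9 genes were higher in it than in the early library, as were 45.1% of all genes tested. For AXIN2 (3 counts against 6, ratio 1.56, counting interval 0.253 to 7.32), TCF7 (3 against 4, 2.34, 0.343 to 13.9) and TCF7L2 (1 against 1, 3.13, 0.0398 to 245) the difference was within counting error. KREMEN1 at 156 CPM, RNF43 at 24.1 CPM and ZNRF3 at 60.1 CPM had their highest value of all 23 libraries there, as 11.5% of tested genes did. They rest on 26, 4 and 10 counts. CTNNB1 at 613 CPM and CSNK1A1 at 1581 CPM were high in the same library, against 121 and 371 CPM in the early one. KREMEN1 and ZNRF3 lie close together on chromosome 26 of the dog, and RNF43 is on chromosome 9. The single coding gene C26H22orf31 stands between KREMEN1 and ZNRF3 in the RefSeq table of the UU_Cfam_GSD_1.0 assembly. The part of this position in their values was not tested.

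The step from tissue to organoid with the inhibitor was also compared between the 2 sources, and 1 of the 9 genes differed, APCDD1, whose fall was smaller in interfollicular cultures, by 2.74 ± 0.67 (adjusted p = 0.0204). Of all genes, 3.93% were called and 3.49% were called higher. Without the later interfollicular organoid library the difference was 1.82 (adjusted p = 0.430).

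Compared with follicle organoids grown with the same inhibitor, interfollicular organoids had 2 of the 9 genes higher, APCDD1 and KREMEN1, and neither was called without that library. APCDD1 was at 11.5 and 42.1 CPM against 1.99 to 7.98 CPM in the 5 follicle organoid libraries, a log2 difference of 2.44 ± 0.55 (adjusted p = 0.00637). KREMEN1 was at 34.6 and 156 CPM against 23.9 to 41.0 CPM, a difference of 1.28 ± 0.38 (adjusted p = 0.0461), with overlapping groups. In all, 6.37% of genes were called and 5.86% were called higher. Without the later interfollicular library, APCDD1 differed by 1.52 with an adjusted p of 0.786 and KREMEN1 by 0.21 with an adjusted p of 1.00. The call of KREMEN1 was also lost without replicate 2 or 3 of the early follicle organoids or either later one, with adjusted p-values of 0.0633 to 0.103. The later interfollicular library's fibroblast marker sum of 752 CPM and hair matrix marker sum of 1443 CPM were the highest of the 11 expansion libraries, and their part in these differences was not tested. CTNNB1, CSNK1A1 and the kinase GSK3B were the 3 other pathway genes called, by 2.06 ± 0.33, 1.42 ± 0.29 and 1.69 ± 0.35, and none was called without that library (0.90, 0.38 and 0.59).

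The Tgf-beta inhibitor changed none of the 9 genes in follicle organoids by the test over all genes. LEF1 was at 0.997 to 2.02 CPM in the 5 libraries with the inhibitor and at 0.418 to 10.7 CPM in the 4 without. APCDD1 was at 1.99 to 7.98 CPM with it and at 3.1 to 29.3 CPM without, a log2 difference of -1.19 ± 0.38 (adjusted p = 0.111). In early passages alone the groups of APCDD1 did not overlap: 4.71, 5.18 and 7.98 CPM with the inhibitor and 29.3 and 10.9 CPM without (-1.55 ± 0.43, adjusted p = 0.0784). The fibroblast markers had sums of 79.4, 139 and 109.9 CPM in those 3 libraries and of 507 and 242 CPM in those 2, and their part in the difference was not tested. LEF1 at 2.02, 1.73 and 1.82 CPM against 10.7 and 3.05 CPM, and TCF7 at 7.40, 25.3 and 21.2 CPM against 30.7 and 44.5 CPM, were also apart in early passages.

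In later passages LGR4, AXIN2, APCDD1 and RNF43 had values that did not overlap, and none passed the test. With 2 libraries on each side, a lack of overlap is no test by itself. AXIN2 had a higher mean with the inhibitor (7.54 against 4.70 CPM), and APCDD1 (2.47 against 4.68 CPM) and RNF43 (0.866 against 2.17 CPM) lower ones. LGR4 was at 37.5 and 33.9 CPM with the inhibitor and at 14.7 and 10.4 CPM without, a log2 difference of 1.49 ± 0.42 with an adjusted p of 0.248. In early passages its groups overlapped, at 22.2, 27.0 and 23.9 CPM against 28.0 and 17.0 CPM. Over both passages the difference was 0.83 ± 0.29 (adjusted p = 0.147). AXIN2, TCF7L2, KREMEN1 and ZNRF3 overlapped over both passages.

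Counts of 0 called genes among the 9 stood beside 2.68% of all genes called over both passages, 1.30% in early and 0.314% in later passages. At an unadjusted p under 0.05 there were 2, 3 and 1 of the 9, beside 1395, 1295 and 541 of the 9888 genes. The test of whether the inhibitor's effect differed between passages called none of the 9, nor any other gene (0% of all genes). In that test 1 of the 9, LGR4, had an unadjusted p under 0.05, beside 268 of all genes. DESeq2 called APCDD1 in early passages (adjusted p = 0.0488) and none of the 9 in the other comparisons of the inhibitor, and limma voom called none in any. Without the second early library that lacked the inhibitor, APCDD1 was called over both passages (-1.54, adjusted p = 0.0396) and in early passages (-2.25, adjusted p = 0.0382).

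Among the 49 other pathway genes tested, 2 were called for the inhibitor over both passages, FRZB and WNT3, beside 2.68% of all genes. FRZB, the secreted Wnt antagonist, rose from 0 to 6.98 CPM in the 4 libraries without it to 10.9 to 96.4 CPM in the 5 with it, a log2 change of 3.48 ± 0.62 (adjusted p = 0.00344). The ligand WNT3 fell from 7.52 to 14.7 CPM to 0 to 2.94 CPM, by -2.85 ± 0.54 (adjusted p = 0.00442). Both calls held whichever of the 9 libraries was left out, though the size moved, from 2.66 to 6.19 for FRZB and from -4.88 to -2.47 for WNT3. The value of 6.19 was without the second early library that lacked the inhibitor, 2.66 without the first early one with it, and -4.88 without the first later one with it. No other of the 49 pathway genes was called over both passages. In early passages, where 1.30% of all genes were called, WNT3 was lower by -3.18 ± 0.70 and TNFRSF19 by -2.62 ± 0.63. Both of these were lost without the first early library that lacked the inhibitor, with adjusted p-values of 0.182 and 0.801, and also without others of the 5 libraries.

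Between early and later passages none of the 9 genes was called, against 0.354% of all genes. APCDD1 came closest, at 4.71 to 29.3 CPM in the 5 early and 1.99 to 6.26 CPM in the 4 later libraries (log2 difference -1.64 ± 0.38, adjusted p = 0.0719). It was called by DESeq2 (adjusted p = 0.0492), with no filter on low counts (0.0219) and without the second early library that lacked the inhibitor (0.0381), and not by limma voom. AXIN2 was at 3.36 to 13.2 CPM in early and 2.92 to 8.09 CPM in later libraries. APCDD1 and AXIN2 had an unadjusted p under 0.05, beside 711 of all genes. Of 8 fibroblast markers tested, 3 fell from early to later passages, with sums of 79.4 to 507 CPM against 50.8 to 63.4 CPM, and their part in the APCDD1 values was not tested. WNT5B, a non-canonical ligand, was the 1 other pathway gene called, higher in later passages by 1.85 ± 0.39 (adjusted p = 0.0398), with 28.7 and 30.1 CPM in the 2 later libraries without the inhibitor and 3.99 and 12.5 CPM in the 2 with it. Without the first later library with the inhibitor its difference was 1.32 (adjusted p = 0.645), and its call was lost without any of 6 other libraries as well. The comparisons of inhibitor and passage use the same 9 libraries, which also enter the comparison with follicle tissue.

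In differentiation media, AXIN2 and KREMEN1 fell relative to later follicle organoids in expansion medium without the inhibitor. All 9 genes had fitted changes below 0, with a median of -1.59 against -0.14 for all genes, and 14.5% of the 9732 genes listed on both sides were called and 10.1% were called lower. AXIN2 had 23 and 7 counts (6.48 and 2.92 CPM) in the 2 expansion libraries and 1 count in all 6 differentiation libraries. The ratio was 12 with a counting interval of 2.00 to 491, and the adjusted p was 0.0235. KREMEN1 was at 23.9 and 19.2 CPM in expansion medium and at 0 to 8.56 CPM in the 6 differentiation libraries, with 14 counts in all (log2 change -1.89 ± 0.44, adjusted p = 0.00721).

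Neither call held without the first expansion library, where AXIN2 changed by -3.57 (adjusted p = 0.179) and the adjusted p of KREMEN1 was 0.0832. Without the first library of complete differentiation medium the changes were -5.57 for AXIN2, against -4.37 ± 1.23 as reported, and -3.69 for KREMEN1. AXIN2 then had no counts in any differentiation library left, and KREMEN1 had none in the complete medium left. These fitted values are therefore no bounds. By limma voom AXIN2 changed by -1.58 and was not called (adjusted p = 0.0554). The differentiation libraries list other entries than the expansion libraries do, 18113 against 20448, so the medium and whatever else separates these files cannot be told apart. Fibroblast markers, hair matrix markers and basal keratinocyte markers fell in the same comparison, for 4 of 8, 5 of 6 and 1 of 6 tested, and 2 of 5 markers of simple and sweat gland epithelium rose. The summed fibroblast markers were at 53.9 to 63.4 CPM in the expansion libraries and, over the 8 listed, at 3.43 to 42.8 CPM in differentiation media. The simple epithelial sums were 9.30 to 20.5 CPM and 36.6 to 119.9 CPM. The part of these shifts in the change of AXIN2 and KREMEN1 was not tested.

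LEF1 had 12 counts in the 2 expansion libraries and 0 in the 6 differentiation libraries. Its expansion level was 1.61 times that of 3 counts over that whole group, 1.26 CPM, and its adjusted p was 0.102. Of the 12 counts 11 came from the first expansion library, at 3.1 CPM, and 1 from the second, at 0.418 CPM. The second is thus under 1.26 CPM, and the excess rests on the first library. The lower counting limit of the ratio was 1.12. TCF7 went from 24.5 and 26.7 CPM to 3.43 to 16.6 CPM without overlap (-1.27 ± 0.48, adjusted p = 0.0789). It was called with no filter on low counts (-1.37, adjusted p = 0.0231) and without the first library of complete differentiation medium (-1.85, adjusted p = 0.0371). TCF7L2 stayed in an overlapping range, 11.6 and 16.3 CPM against 8.56 to 20.6 CPM. APCDD1, already low in later expansion libraries at 3.1 and 6.26 CPM, was at 0 to 4.97 CPM. LGR4 was at 14.7 and 10.4 CPM and at 2.29 to 20.6 CPM, RNF43 had 12 counts and 2, and ZNRF3 had 31 counts and 4. Of 47 other pathway genes tested, BAMBI fell, from 13 counts to 0, and SOX9 rose, from 1 count to 15 (ratio 37.4, counting interval 5.75 to 1573). The expansion level of BAMBI was 1.74 times that of 3 counts over the differentiation libraries, with a lower counting limit of the ratio of 1.22. SOX9, a factor of follicle stem cells, had 0 counts in both libraries of follicle tissue. Neither call held whichever library was left out.

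**Figure D4:**
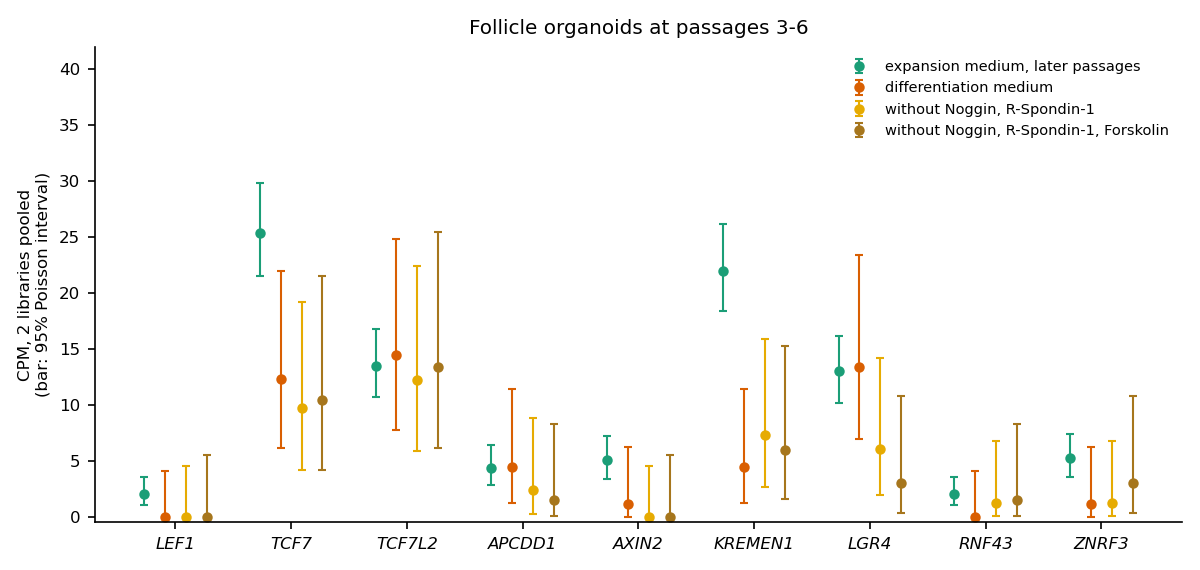
Level of the 9 genes in later follicle organoids in expansion medium and in the 3 differentiation media, as CPM over the 2 pooled libraries of each group; bars are 95% Poisson intervals and cover counting error only. KREMEN1 stands at 22.0 CPM in expansion medium and its intervals in the 3 differentiation media lie below that value, and LEF1 has no counts in any of the 3.

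Leaving R-Spondin-1 out of the differentiation medium, together with Noggin, gave no called change in any of the 9 genes, and none in any of the 9732 genes (0%). At an unadjusted p under 0.05 there were 0 of the 9 and 261 of all genes. Leaving out Forskolin as well gave 0 called against the complete medium (0% of all genes, with 376 at an unadjusted p under 0.05) and 0 against the medium that lacked only the other 2 agents (0%, with 329). DESeq2 and limma voom called none of the 9 in these 3 comparisons, which share their libraries.

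These libraries are shallow, from 237864 to 694104 counts, and AXIN2, LEF1 and APCDD1 were at or near 0 with R-Spondin-1 present. AXIN2 had 1 and 0 counts in the 2 libraries of complete medium and 0 in each of the 4 libraries without R-Spondin-1. Its level with R-Spondin-1 was thus below that of 3 counts over those 4 libraries, 2.01 CPM, and a fall was not detectable at this depth. LEF1 had 0 counts in all 6. APCDD1 had 3 and 1 counts in complete medium, 1 and 1 when R-Spondin-1 and Noggin were left out, and 1 and 0 without Forskolin as well.

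LGR4, the receptor of R-spondin, was not called. Its values with R-Spondin-1 lay above all those without, but narrowly, at 9.94 against 9.64 CPM for the nearest 2 libraries. It had 6 and 6 counts in complete medium, at 9.94 and 20.6 CPM, against 4 and 1 counts (9.64 and 2.47 CPM) without Noggin and R-Spondin-1 and 1 and 1 (2.29 and 4.28 CPM) without Forskolin as well. The pooled ratio of complete medium to the 4 libraries without R-Spondin-1 was 2.85, with a counting interval of 1.04 to 8.56. The fitted log2 changes were -1.19 ± 0.75 without Noggin and R-Spondin-1 and -2.18 ± 0.92 without all 3 agents, each with an adjusted p of 1.00, and the second had an unadjusted p of 0.0270. Leaving out 1 library moved the first of these to between -2.45 and -0.53. KREMEN1 had 4 and 0 counts in complete medium, 3 and 3 when R-Spondin-1 and Noggin were left out, and 2 and 2 without all 3 agents. In the same order, TCF7 had 10 and 1, 5 and 3, and 5 and 2 counts, and TCF7L2 had 7 and 6, 5 and 5, and 7 and 2. RNF43 had 0 counts in complete medium and 2 in the other 4 libraries, and ZNRF3 had 1 and 3.

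Ordered by mean level, the 12 groups ran from follicles (92.2 CPM) and whole skin (70.1 CPM) at the top for LEF1 to the 3 differentiation media at 0, and 6 of the 11 neighbouring pairs in that order overlapped. For APCDD1 whole skin (336 CPM) was highest and 4 of 11 neighbouring pairs overlapped, the fewest of the 9 genes. For TCF7L2, 10 of 11 overlapped. The patterns of LEF1, APCDD1, AXIN2 and LGR4 over the 12 group means resembled each other, with Spearman rho of 0.84 to 0.96. APCDD1 and AXIN2 were the pair most alike. These 4 are also the genes called lower in follicle organoids than in follicle tissue, so their likeness is not independent of those calls. KREMEN1 was not far from them, with rho of 0.72 to 0.81, nor was ZNRF3, with 0.64 to 0.77. RNF43 had rho of 0.29 to 0.63 with them. TCF7 and TCF7L2 stood apart from these 4 genes, with rho from 0.07 to 0.37. These are descriptions over 12 groups that share the step from tissue to culture and differ in depth.

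Among 8719 genes searched by the same measure, LEF1 was most like LHX2, a factor of follicle stem cells (0.99), PXDN (0.99) and C1QTNF3 (0.98). LEF1 and LHX2 both had no counts in the early interfollicular organoid library and in all differentiation media. Those shallow groups are tied for both genes, and the ties enter the rho. APCDD1 was most like LHFP, H1F0 and PRLR, all at 0.98. AXIN2 was most like FAM129A (0.98), DCN, the fibroblast proteoglycan decorin (0.98), and FMN1 (0.97), and LGR4 was most like SECISBP2L (0.97), LRRN4CL (0.96) and GPRC5D (0.96). KREMEN1 was nearest to HIVEP2 (0.96), PPP1R12A (0.96) and ASH1L (0.95), and ZNRF3 to ZNF367 (0.94), SF1 (0.94) and HTATSF1 (0.93). For TCF7 the nearest were FABP4 (0.94), MGME1 (0.93) and SNRNP40 (0.92), for TCF7L2 B4GAT1 (0.92), TADA2A (0.92) and EID1 (0.90), and for RNF43 ENPP1 (0.90), CLEC11A (0.88) and SH2D3C (0.88).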

How the data were processed

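The 23 tables hold, as deposited by the authors, estimated counts per gene from CEL-seq2 (some carry a fraction), which were rounded to whole numbers here. As aligner and genome, the submitters' processing notes list BWA (version 0.6.2-r126) and CanFam3.1; which annotation and counting tool were used, and how molecular barcodes were handled, the sources used here do not say. Entries naming no gene (4 entries, 0.461 to 2.158% of a library's counts) were left out. Entries absent from the differentiation tables stayed out of comparisons with them.

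The test was that of edgeR 4.0.16 (R 4.3.3), with its default low-count filter on the 12 groups, TMM scaling, and a quasi-likelihood model with a mean per group over all 23 libraries (11 residual degrees of freedom). Benjamini-Hochberg adjustment covered all genes tested, and a gene is called at an adjusted p under 0.05. Pooled groups take the plain mean of their log2 means. Single-library intervals are exact binomial and pooled ones Poisson; count ratios carry exact 95% intervals. Alternatives were DESeq2 1.42.0, limma voom 3.58.1, other scalings, no filter, only the groups compared, a replicate block and each library left out. The model was also run on simulated data, whose recovery rates are not given here.

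The 9 genes, the pathway lists and the markers were chosen with earlier results of these data known. In each list the called genes are named, at most 4 per direction by smallest p; LHX2 and DCN are among the markers fixed as single genes. The R-spondin genes were named after their values were seen. One comparison, the difference between both sources in the step from tissue to organoid, was added after the data were seen. Pathway genes that the tables do not list were not analysed here.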

Additional observations from a re-analysis of the deposited data

Results flagged for a closer look

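The step from tissue to organoid with the Tgf-beta inhibitor differed between sources for APCDD1. The fitted fall was smaller in interfollicular than in follicle cultures, by a log2 difference of 2.74 ± 0.67 (adjusted p = 0.0204, edgeR's quasi-likelihood test of the difference itself), in a comparison in which 3.93% of all genes were called. APCDD1 was at 258 and 200.5 CPM in interfollicular epidermis and at 11.5 and 42.1 CPM in its organoids, against 304 and 269.7 CPM in follicles and 1.99 to 7.98 CPM in follicle organoids with the inhibitor. The difference was not called without the later interfollicular organoid library (1.82, adjusted p = 0.430), the first follicle library (2.68, 0.0515) or the second library of interfollicular epidermis (2.59, 0.0625). In the same comparison, 5 of 8 fibroblast markers and 8 of 9 hair matrix markers differed the same way, and their part in the APCDD1 value was not tested. Of the 49 other pathway genes tested, CTNNB1, BAMBI and HOXC13 differed too, by 2.96 ± 0.55, 5.12 ± 1.38 and 5.10 ± 0.93.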

How the results depend on the processing

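Numbers of the 9 genes called moved as follows. Without a filter on low counts, 2 were called between follicles and interfollicular epidermis (0 as reported), 1 between passages (0) and 1 between interfollicular and follicle organoids (2). With only the groups compared in the fit, 1 was called between the tissues (0) and 0 between differentiation and expansion media (2), where AXIN2 and KREMEN1 did not pass the filter on low counts of that fit and were not tested. DESeq2 called 1 for the inhibitor in early passages and 1 between passages (0 each), and limma voom 1, KREMEN1, in differentiation media (2) and 2 in the difference between both sources (1). With 1 library left out at a time, the numbers ran from 1 to 2 for interfollicular organoids against their tissue, 0 to 1 for the inhibitor over both and in early passages and for passage, 0 to 5 for interfollicular against follicle organoids, 0 to 3 for differentiation media and 0 to 3 for the difference between both sources. LEF1 in interfollicular organoids, at -3.56, turned to 0.67 without the early library and was at -7.83 without the later one. The organoid library left in that last fit had no counts of LEF1, so its value is no bound. The cause of these moves was not tested. Replicate numbers were not taken as pairs, since the labels do not say that they are: same-numbered libraries had correlations of 0.46 to 0.57 among the 3 differentiation media and of -0.31 to 0.18 in the other pairs of groups. A replicate block called 1 gene between interfollicular and follicle organoids and 5 in follicle organoids against tissue, and moved all genes called for the inhibitor in early passages from 129 to 42 and in differentiation media from 1411 to 1751. Scaling by library totals moved the genes called higher and lower from 203 and 73 to 145 and 143 between the tissues, from 16 and 138 to 37 and 107 for interfollicular epidermis against skin, from 895 and 1876 to 597 and 2206 in follicle organoids, from 667 and 445 to 389 and 1097 in interfollicular organoids, from 190 and 75 to 134 and 115 for the inhibitor, from 84 and 45 to 48 and 67 in early passages, and from 345 and 44 to 303 and 114 for the difference between sources. It shifted the median of all genes most in interfollicular organoids, from -0.14 to -0.70. Depth limits LEF1, AXIN2 and RNF43 in differentiation media, where a count of 0 allows up to 4.97 to 12.8 CPM per library.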
